A study of Mus musculus with 24 samples.

Results

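Splicing factor genes were taken as the protein-coding genes of the GENCODE vM21 basic annotation whose names begin with Srsf, Snrp, Hnrnp, Sf3a, Sf3b, Prpf or U2af. They numbered 68 of 21755 protein-coding genes. The rule used names alone and no measured value. The spliceosome removes introns from pre-mRNA and is built from small nuclear ribonucleoproteins (snRNPs), whose Sm proteins, U1 and U2 proteins and tri-snRNP proteins are encoded by the Snrp, Sf3a, Sf3b and Prpf genes. The U2af proteins recognise the end of the intron, whereas SR proteins (Srsf) and heterogeneous nuclear ribonucleoproteins (Hnrnp) bind the transcript and steer the choice of splice sites. H3K4me3, trimethylation of lysine 4 of histone H3, marks the promoters of active genes and is found mostly at CpG islands (CGIs), the GC-rich stretches at which many housekeeping genes start.

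H3K4me3 was measured by chromatin immunoprecipitation with sequencing (ChIP-seq) in 3 replicates of C127 cells, an established mouse mammary epithelial line grown without any treatment named in the labels, with 1 matched input. The series also profiled CFP1, KDM2B, RNA PolII and GFP-tagged CFP1, and those samples were not analysed here. The data were a single list of 13451 peaks shared by the 3 replicates, with a position and no height, so that the width of a peak was the only quantity of each gene, replicate spread could not be given and no test was run. Depth per sample is unknown. A gene was called marked when a peak came within 250 bp of one of its transcription start sites (TSSs), and its width is that of its widest such peak. Most markers of the epithelial type lacked a peak, which was found at 1 of 10 luminal genes (Esr1) and 0 of 5 basal genes. It was found at 6 of 6 mesenchymal genes and at 49.4% of all protein-coding genes. A CpG island was present at all 10 luminal and all 6 mesenchymal genes, but at only 1 of the 5 basal genes. The closest peaks to unmarked genes were 594 bp from Krt14 (basal) and 1757 bp from Krt8 (luminal). The cells are called by the name of the line.

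The promoters on which the description turns are shown with each CpG dinucleotide in capitals. They are those of the widest and the narrowest member, of the unmarked Srsf12 and Snrpn, of the member starts nearest to an opposite start (Srsf1 and Snrpa, with Srsf11), and of an unmarked and a marked promoter of Hnrnpf, which was added after its values were seen. The letters are RefSeq's (GRCm38.p6, the same assembly as the mm10 of the peak list), run 5′ to 3′ on the strand of the gene and reach from at most 120 bp upstream of a start to 15 bases into the transcript, cut shorter where another coding exon begins. The stretches are set on RefSeq starts. Those printed for Srsf11 (158036667 and 158031897), Srsf12 (33209272) and Snrpn (60005199) differ from the GENCODE starts given below. Promoter windows of 59 of the 68 genes were in the sequence table used here. Those of Hnrnpll, Hnrnpul2, Prpf18, Sf3b4, Sf3b5, Snrpb, Snrpd1 and U2af2, among others, were not used here.
Srsf11, upstream promoter, chr3:158036653-158036682, minus strand: ttcaaggtgccatggctggataacccCGcc
Srsf11, downstream promoter, chr3:158031883-158031998, minus strand: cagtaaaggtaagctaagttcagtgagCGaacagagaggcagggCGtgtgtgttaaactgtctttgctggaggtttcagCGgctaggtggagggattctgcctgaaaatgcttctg
Sf3b6, chr12:4817424-4817558, plus strand: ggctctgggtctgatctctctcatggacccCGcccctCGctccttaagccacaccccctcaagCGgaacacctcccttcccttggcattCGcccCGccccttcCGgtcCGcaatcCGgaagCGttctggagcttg
Srsf12, chr4:33209257-33209286, plus strand: ggccCGggagggggCGCGgCGggctgctgg
Snrpn, chr7:60005185-60005319, minus strand: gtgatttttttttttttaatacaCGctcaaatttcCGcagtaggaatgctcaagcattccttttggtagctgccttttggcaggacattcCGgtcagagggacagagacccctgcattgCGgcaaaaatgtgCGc
Srsf1, chr11:88047253-88047387, plus strand: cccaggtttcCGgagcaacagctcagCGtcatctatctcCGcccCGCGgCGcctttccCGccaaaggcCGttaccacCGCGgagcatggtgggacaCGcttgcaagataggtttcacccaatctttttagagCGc
Snrpa, chr7:27195746-27195795, minus strand: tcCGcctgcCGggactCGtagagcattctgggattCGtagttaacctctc
Hnrnpf, promoter 1, chr6:117900220-117900354, plus strand: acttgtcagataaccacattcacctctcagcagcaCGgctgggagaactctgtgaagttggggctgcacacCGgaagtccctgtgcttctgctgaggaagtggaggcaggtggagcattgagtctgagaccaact
Hnrnpf, promoter 3, chr6:117917174-117917308, plus strand: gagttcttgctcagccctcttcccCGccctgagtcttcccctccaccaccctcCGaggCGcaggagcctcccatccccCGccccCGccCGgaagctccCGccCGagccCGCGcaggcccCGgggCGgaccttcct
The stretch of Sf3b6 held 9 CpGs in 135 bases and that of Srsf1 held 12. The unmarked first promoter of Hnrnpf held 2 in 135 bases, against 12 at its marked promoter 3, and Snrpn held 5. The 30 bases of the unmarked Srsf12, at its RefSeq start 33209272, held 4, so CpGs were present at an unmarked start too.

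H3K4me3 lay at the start of nearly every splicing factor gene. A peak was found at 65 of 68 genes (95.6%), against 10747 of all 21755 protein-coding genes (49.4%) and against 10398 of the 14808 (70.2%) whose TSS had a CpG island within 250 bp. An island was present at 67 of the 68 members. All 20 Hnrnp, 13 Prpf, 3 Sf3a and 3 U2af genes were marked, and 10 of 11 Srsf, 11 of 12 Snrp and 5 of 6 Sf3b genes. The distance limit decided none of these calls: in all 65 marked genes a peak covered a TSS itself, and the nearest peak of the 3 others was 2564 bp or farther away.

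The 3 genes without a peak differed from each other. Srsf12 (ENSMUSG00000054679.8, an SR-like protein known as an antagonist of other SR proteins) starts on chromosome 4 at 33208991, beside an island of 751 bp at 33209038 to 33209788, and the nearest peak was 36673 bp away. The RefSeq start printed above, at 33209272, lay in that island, 36392 bp from the same peak. Snrpn (ENSMUSG00000102252.5) encodes a tissue-restricted relative of the Sm protein SmB and is imprinted, being expressed from the paternal allele. Its start at 60005111 on chromosome 7 lay in an island of 672 bp, its other basic start at 60140219 had none, and the nearest peak was 774163 bp from the first. At the promoter printed above, 3.62% of the 32-bp words within 250 bp of the TSS at 60005111 recur elsewhere in the genome. Sf3b5 (ENSMUSG00000078348.4), a small subunit of the U2 snRNP, has starts that differ between annotations. Its only basic TSS, at 13005343 on chromosome 10, had no island and 4 CpGs within 250 bp and lay 2564 bp before a peak of 2658 bp. RefSeq places the start 3107 bp farther along, at 13008450, where an island of 984 bp and 44 CpGs were found and which lay inside that peak, at 13007907 to 13010564. With RefSeq starts, an alternative chosen after the data were seen, 66 of the 68 genes were marked and Srsf12 and Snrpn were not.

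The peaks of splicing factor genes were wide. Their median width was 3910 bp (quartiles 3274 and 5151 bp, n = 65), against 3254 bp (2410.5 and 4258 bp) for all 10747 marked protein-coding genes. Of the 65, 49 (75.4%) were wider than the median of all marked genes, 27 (41.5%) lay above their upper quartile and 5 (7.69%) below their lower quartile. The 5 widest were those of Srsf11 (8018 bp), Hnrnpa2b1 (7632 bp), Hnrnpa1 (7506 bp), Prpf6 (7068 bp) and Hnrnpd (7036 bp). The 5 narrowest were those of Sf3b6 (1814 bp), Snrpb2 (2055 bp), Sf3a3 (2091 bp), Prpf39 (2100 bp) and Snrpe (2404 bp). The widest was 97.5% of the way up the ranking of all marked genes and the narrowest 11.2% of the way.

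Width differed by family. The regulators stood highest: the median was 5226 bp in the Hnrnp genes (n = 20) and 4758 bp in the Srsf genes (n = 10). The families of core snRNP proteins stayed near the median of all marked genes, at 3443 bp in Snrp (n = 11), 3420 bp in Sf3a (n = 3), 3341 bp in Sf3b (n = 5) and 3274 bp in Prpf (n = 13). U2af, with 3 genes, had 3631 bp. All 20 Hnrnp genes and 9 of the 10 marked Srsf genes exceeded the median of all marked genes, against 6 of 11 Snrp and 7 of 13 Prpf genes. The ranges overlapped between all families, and these differences were not tested. Peaks that also cover a divergent partner, described below, are included. In members without such a partner the median was 4232 bp in Hnrnp (n = 11) and 4320.5 bp in Srsf (n = 4).

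**Figure D1:**
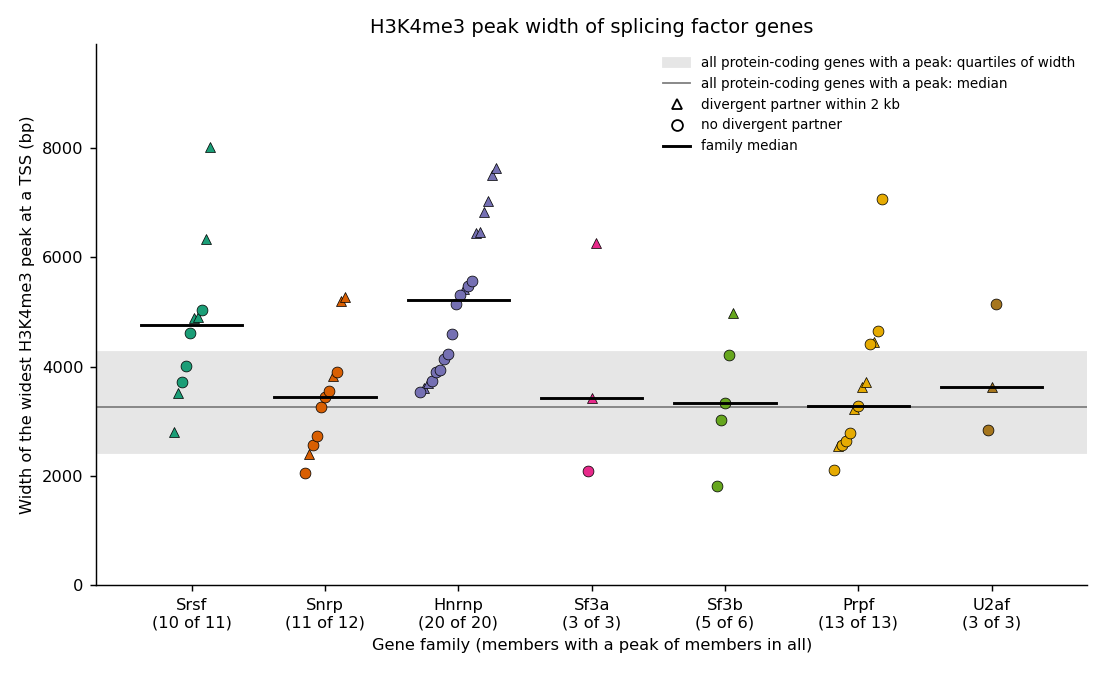
Width of the widest H3K4me3 peak at a TSS (y axis, bp) for each of the 65 marked splicing factor genes, by family (x axis), with triangles for genes that have a divergent partner, circles for the others and bars at family medians. The grey line and band are the median (3254 bp) and the range between the quartiles of all marked protein-coding genes, and all 20 Hnrnp points lie above the line.

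Among the Hnrnp genes, the narrowest peak was that of Hnrnpc (3536 bp), whose protein binds uridine tracts of nascent transcripts, and the widest that of Hnrnpa2b1 (7632 bp), an RNA-binding protein that shares much of its sequence with Hnrnpa1 (7506 bp). Hnrnpd (7036 bp), which also acts in mRNA turnover, Hnrnpul2 (6829 bp), Hnrnpl (6470 bp) and Hnrnpdl (6448 bp) followed. Hnrnpu, a nuclear scaffold protein, had 5571 bp. Related genes did not always sit together: Hnrnpa3 had 3734 bp and Hnrnpa0 4593 bp, well below Hnrnpa1 and Hnrnpa2b1, and Hnrnph2 had 3615 bp against 5471 bp for Hnrnph1 and 5427 bp for Hnrnph3.

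The Srsf genes ran from Srsf5 (2795 bp) to Srsf11 (8018 bp). Srsf2, an SR protein that binds exonic enhancers, had 6334 bp, Srsf9 5026 bp, Srsf3 4906 bp and Srsf1 4894 bp, the last a general activator through exonic enhancers. Srsf7 (3515 bp) and Srsf4 (3718 bp) were the narrowest after Srsf5. Their places in the ranking of all marked genes ran from 36.4% to 97.5%.

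The Snrp genes ran from Snrpb2 (2055 bp), which encodes a U2 snRNP protein, to Snrpd2 (5276 bp), a subunit of the Sm ring. The Sm ring is an equimolar assembly of 7 proteins, but the peaks at its genes had different widths: Snrpe 2404 bp, Snrpd1 2558 bp, Snrpg 3254 bp, Snrpf 3443 bp, Snrpb 3900 bp, Snrpd3 5193 bp and Snrpd2 5276 bp. The 2 widest share their peak with a coding neighbour, as described below. The U1 snRNP genes Snrpa and Snrpc had 3820 and 2725 bp, and Snrpa1 of the U2 snRNP had 3549 bp.

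The same held within the SF3a and SF3b complexes, which bind around the branch point of the intron as parts of the U2 snRNP. The 3 SF3a genes had 2091 bp (Sf3a3), 3420 bp (Sf3a1) and 6256 bp (Sf3a2). Of the SF3b genes, Sf3b6, whose small protein contacts the branch point adenosine, had 1814 bp, Sf3b1, the large scaffold subunit, 3026 bp, Sf3b4 3341 bp, Sf3b2 4219 bp and Sf3b3 4979 bp. In the U2af family, U2af1, which reads the AG at the end of the intron, had 2842 bp, its paralogue U2af1l4 3631 bp and U2af2, which binds the polypyrimidine tract, 5138 bp. Of the Prpf genes, Prpf39 (2100 bp), a U1-associated protein, was the narrowest, and Prpf8 (2637 bp), the scaffold of the catalytic core, and Prpf19 (2778 bp), the ubiquitin ligase of the complex that bears its name, were also below the median of all marked genes. Prpf6, a bridge within the tri-snRNP, had 7068 bp. Its peak reached 4988 bp upstream of the TSS and also held the start of Samd10, on the opposite strand 2104 bp away, just beyond the 2 kb used to call a divergent partner.

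Width followed the length of the CpG island at the TSS. Over the 65 marked members, all of which had an island, Spearman's rho between the longest island and the width was 0.63, and over 10398 marked protein-coding genes with an island it was 0.41. These are correlations across genes of a single peak list, and neighbouring starts share a peak. When those genes were divided at the quartiles of island length into 4 classes of nearly equal size, 30 of the 65 members (46.2%) were in the class with the longest islands (1332 bp or more) and 5 (7.69%) in that with the shortest (788 bp or less). Of the 30, 16 were Hnrnp and 8 Srsf genes, while 8 of the 11 Snrp and 8 of the 13 Prpf genes were in the 2 classes with the shorter islands. Within each class the members' median was above that of all marked genes. It was 2725 against 2549.5 bp (5 members), 3229 against 2980 bp (15), 3631 against 3450 bp (15) and, in the longest, 4960 against 4100.5 bp (30). These differences were not tested, and divergent partners, described below, were not taken into account.

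**Figure D2:**
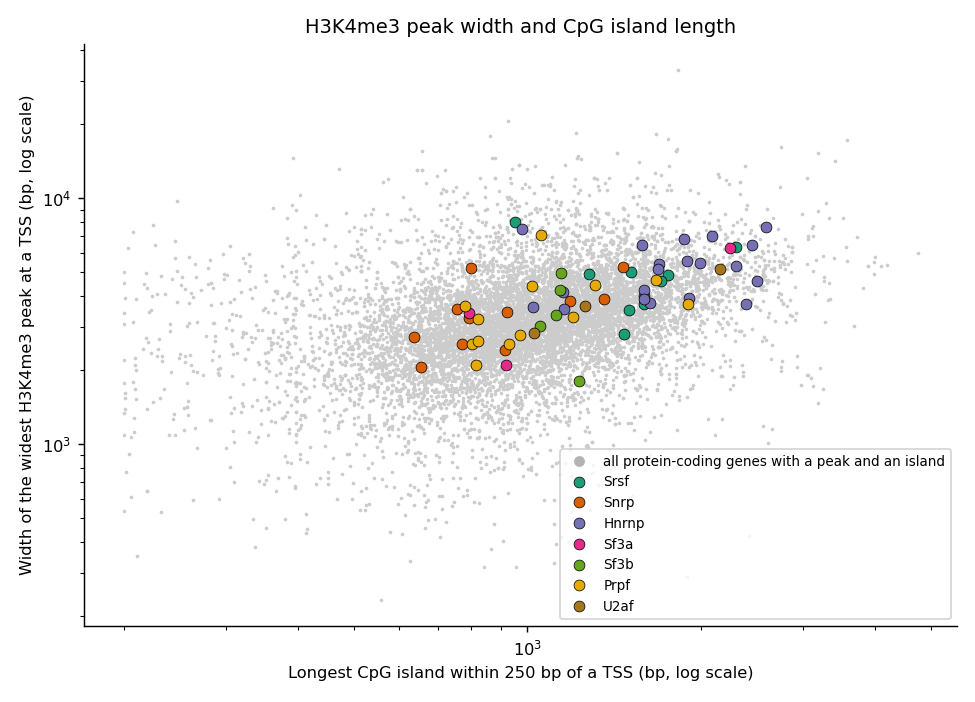
Width of the widest TSS peak (y axis, bp, log scale) against the longest CpG island within 250 bp of a TSS (x axis, bp, log scale), with splicing factor genes coloured by family over all marked protein-coding genes with an island in grey. The Hnrnp genes sit to the upper right, while Srsf11, Hnrnpa1 and Prpf6 stand high, with longest islands of 951, 979 and 1056 bp. Further islands under a peak are not counted on the x axis.

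Median island lengths by family were 1777 bp in Hnrnp and 1514 bp in Srsf, against 796 bp in Snrp and 970 bp in Prpf. The median was 954 bp over all protein-coding genes with an island and 1023.5 bp over the marked ones among them. Some genes with wide peaks had no long single island at a TSS. Srsf11 (longest island 951 bp), Hnrnpa1 (979 bp) and Prpf6 (1056 bp) were among the 5 widest. In all 3 the peak held a further start, of the gene itself or of a neighbour. All island sequence under the peak came to 1749 bp in Srsf11, 2114 bp in Hnrnpa1 and 1816 bp in Prpf6. These values were above the median of 1595 bp of the marked members. At the other end, Sf3b6 had the narrowest peak over an island of 1228 bp, and Hnrnpk, with an island of 2396 bp, had a peak of only 3703 bp that was cut by a gap.

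Many splicing factor genes share their promoter region with a gene on the opposite strand. A divergent partner, a coding or lncRNA gene that starts upstream on the other strand within 2 kb, was found for 28 of the 68 members (41.2%), all of them marked, against 3359 of all 21755 protein-coding genes (15.4%). Among marked genes alone the shares were 28 of 65 (43.1%) and 2732 of 10747 (25.4%). The partner was coding in 22 and a lncRNA in 6, and in all 28 pairs the member and the partner started in the same peak, as did 2550 of the 2732 pairs of all marked protein-coding genes. The median distance between the starts of a pair was 119 bp. The share was 6 of 11 in Srsf, 9 of 20 in Hnrnp, 5 of 13 in Prpf and 4 of 12 in Snrp.

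The closest pair was Srsf1 with the lncRNA 2010015M23Rik, whose starts on chromosome 11, at 88047373 and 88047360, are 13 bp apart. The printed Srsf1 stretch spans both. Snrpa and BC024978 followed at 21 bp, Srsf11 and Lrrc40 at 23 bp, Hnrnpk and Rmi1 (a partner of the BLM helicase) at 51 bp, and Hnrnph2 and Gla, the alpha-galactosidase gene, at 54 bp. Pairs of 56 to 155 bp were Prpf31 with Tfpt (56 bp), Sf3a1 with Ccdc157 (57 bp), Srsf3 with the lncRNA Gm16196 (60 bp), U2af1l4 with Psenen, which encodes a gamma-secretase subunit (60 bp), Snrpd3 with Gucd1 (71 bp), Prpf3 with the lncRNA Gm26594 (81 bp), Sf3a2 with Plekhj1 (106 bp), Srsf5 with the lncRNA Gm20337 (108 bp), Prpf38a with Orc1 of the origin recognition complex (118 bp), Snrpe with the lncRNA Gm26706 (120 bp), Hnrnpd with 4930524J08Rik (123 bp), and Srsf7 with Ttc39d and Prpf4 with Cdc26 of the anaphase-promoting complex (155 bp each). Farther apart were Sf3b3 and Cog4 (258 bp), Hnrnpl and the lncRNA Gm44702 (393 bp), Snrpd2 and Qpctl (431 bp), Hnrnpa2b1 and Cbx3 (466 bp), Hnrnpa1 and Cbx5 (616 bp), Hnrnph3 and Pbld2 (618 bp), Hnrnpul2 and Ttc9c (677 bp), Srsf2 and Mfsd11 (726 bp) and Hnrnpdl and Enoph1 (763 bp). Cbx3 and Cbx5 both encode HP1 proteins, so that a pair of related Hnrnp genes stands back to back with a pair of related heterochromatin protein genes, and the region between the human counterparts of Hnrnpa2b1 and Cbx3 is known as a ubiquitous chromatin opening element.

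The median width was higher in members with a divergent partner than in those without. The median was 4900 bp (2404 to 8018 bp, n = 28) against 3734 bp (1814 to 7068 bp, n = 37), and over all marked protein-coding genes it was 3878 bp (n = 2732) against 3043 bp (n = 8015). Such peaks cover 2 promoters, so their width is not that of 1 gene. In the Hnrnp family the 9 genes with a partner had a median of 6470 bp and the other 11 a median of 4232 bp, and each of the 6 widest Hnrnp peaks had a partner start in it. In the Snrp family the medians were 4506.5 bp (n = 4) and 3254 bp (n = 7). In the Srsf genes they were 4900 bp (n = 6) and 4320.5 bp (n = 4), and in the Prpf genes 3631 bp (n = 5) and 3026 bp (n = 8). The smaller families had 4838 bp (n = 2) and 2091 bp (n = 1) in Sf3a and 4979 bp (n = 1) and 3183.5 bp (n = 4) in Sf3b, while U2af went the other way, with 3631 bp (n = 1) and 3990 bp (n = 2). A coding partner went with 5086 bp (n = 22) and a lncRNA partner with 3844.5 bp (n = 6). Close pairs were not all wide, since Srsf5 had 2795 bp, Prpf3 2546 bp and Snrpe 2404 bp, each with a lncRNA partner. A further 4 members, Prpf4b, Sf3b2, Sf3b4 and Snrpf, had no such partner but an opposite lncRNA start just inside the gene.

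The peak reached farther into the gene than away from it. In the 33 marked members with no opposite start within 2 kb on either side, the median reach was 2585 bp downstream (900 to 4093 bp) and 1046 bp upstream (153 to 4988 bp) of the most upstream TSS in the peak. The downstream reach was the longer in 30 of the 33 (90.9%), against 92.9% of 7262 such protein-coding genes, whose medians were 2180 and 757 bp. In the Hnrnp genes, the medians were 3214 bp downstream and 1347 bp upstream (n = 11), with the downstream side longer in all 11. The 3 exceptions were Prpf6, Prpf40b (1577 bp downstream, 1696 bp upstream) and Sf3b6, the narrowest, which was nearly even at 900 and 913 bp. Prpf19 had only 153 bp upstream and 2624 bp downstream. In the 28 members with a partner, the upstream side had a median of 1780.5 bp and the downstream side 2806 bp. The upstream median was above the 1046 bp of members without an opposite start. The corresponding medians over 2705 protein-coding genes with a partner were 1779 and 2037 bp. In Hnrnpl, Sf3a2, Snrpd3 and Snrpa the partner starts upstream of a later TSS only. Its start therefore lay on the downstream side of the most upstream TSS in the peak.

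**Figure D3:**
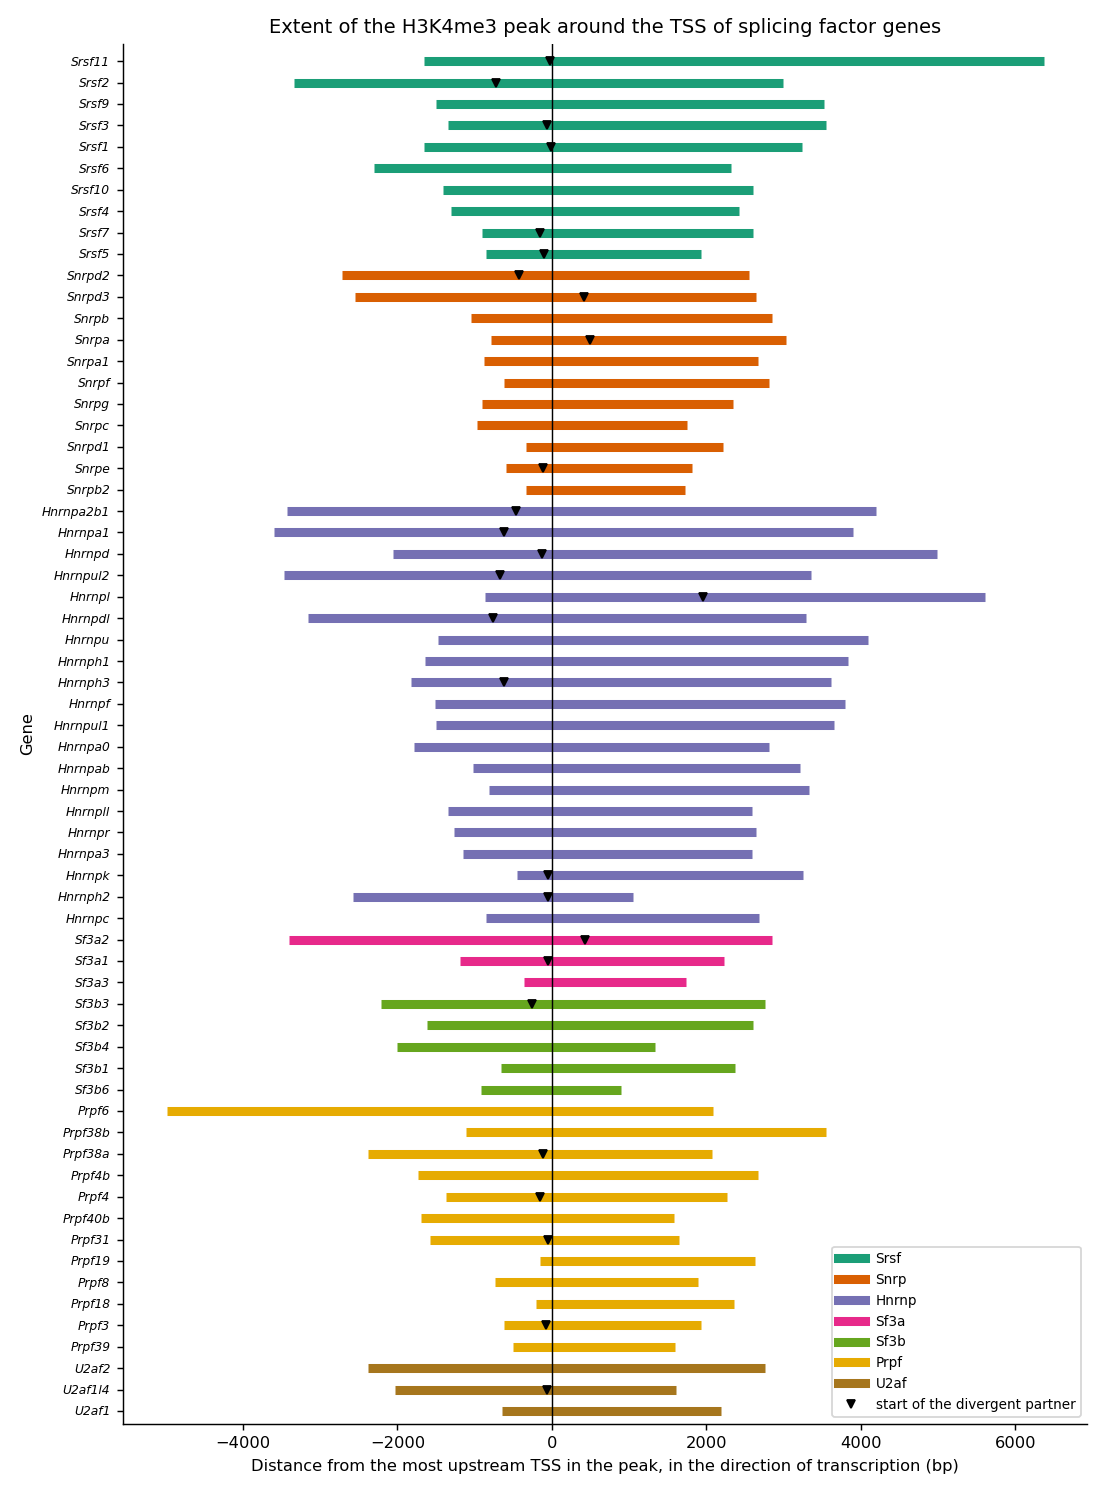
Extent of the widest TSS peak of 64 of the 65 marked splicing factor genes (rows, coloured by family) in bp from its most upstream TSS in the peak, with transcription to the right. Black triangles mark the start of the divergent partner in 27 of the genes drawn. Most bars extend farther to the right of the line at 0 than to the left, and the 9 longest left arms after that of Prpf6 belong to genes with a triangle.

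In every one of the 65 genes the downstream edge lay past the end of the first exon, by a median of 2318 bp, judged on the longest transcript from the TSS. It fell in the first intron in 24 genes, in a later intron in 32 and in a later exon in 8. In Hnrnpa0, which has a single exon of 2678 bp, it lay 132 bp past the end, so that the peak covered the whole gene. The median first exon of the members was only 198 bp. The position of the edge was not computed for all marked genes, so these counts cannot be called particular to the members. The peak covered over 50% of the gene in 8 members: Hnrnpa0 (100%), Srsf2 (93.7%), U2af1l4 (77.6%), Snrpd2 (66.8%), Hnrnpa1 (62.4%), Hnrnpdl (61.4%), Srsf9 (59.8%) and Srsf1 (50.8%). These were 12.3% of the marked members, close to the 10.0% of all marked genes. The median share of the gene under the peak was 21.0%, against 8.55% of all marked genes. Members were also shorter, with a median of 13819 bp against 24248 bp.

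Several promoters, meaning TSSs more than 750 bp apart, were annotated in 9 members (13.2%), against 4854 protein-coding genes (22.3%). The 9 genes had 20 promoters, of which 11 carried a peak. Every promoter with a peak had an island, whereas 7 of the 9 without a peak had none. An island was also present at 10398 of all 10747 marked protein-coding genes, whose single promoters were not counted. The number of CpGs within 250 bp was 16 to 59 at the first TSS of the marked promoters and 3 to 20 at the unmarked ones. The unmarked promoters with an island were the downstream one of Hnrnpk (312 bp) and that of Snrpn described above. Some promoter lacked a peak in 6 of the 8 marked genes of this kind (75%), a share close to the 71.5% of 2098 such protein-coding genes.

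Hnrnpf (ENSMUSG00000042079.13, chromosome 6) had the most, with 4 promoters over 23361 bp. The second, at 117906795, and the third, at 117917294, each had a peak of its own, of 5301 bp at 117905284 to 117910584 and of 4971 bp at 117915240 to 117920210, over islands of 2302 and 1369 bp. The first, at 117900340 with 11 CpGs, lay 4944 bp from the nearest peak, and the fourth, at 117923701 with 5 CpGs, lay 3491 bp away. Neither had an island. The 2 Hnrnpf sequences above are of promoters 1 and 3.

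In Srsf11 (ENSMUSG00000055436.18, chromosome 3, minus strand), the promoters at 158036639 and 158031766 are 4873 bp apart, have islands of their own (951 and 798 bp) and both lay in the single peak of 8018 bp at 158030273 to 158038290. The Lrrc40 start lay in it too, so the widest peak of the 65 marked members held 3 promoters. Hnrnpl had a like arrangement, with promoters 2349 bp apart in a peak of 6470 bp, islands of 1508 and 1582 bp and the start of Gm44702. In the other 5 marked genes 1 promoter had a peak and 1 had none. Hnrnpm was marked at its downstream promoter, and its upstream TSS with 3 CpGs lay 625 bp from the peak, the closest of all unmarked promoters. Snrpc was likewise marked at the downstream of its promoters, the other being 965 bp from the peak. Of the words at that unmarked Snrpc TSS, 83.4% recurred elsewhere in the genome, and since reads without a unique position had been discarded, the part of this in the absence of a peak was not tested. In Prpf40b and U2af2 the upstream promoter was marked, and the downstream ones, at 8013 and 5085 bp, had 8 and 3 CpGs, no island and no peak.

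**Figure D4:**
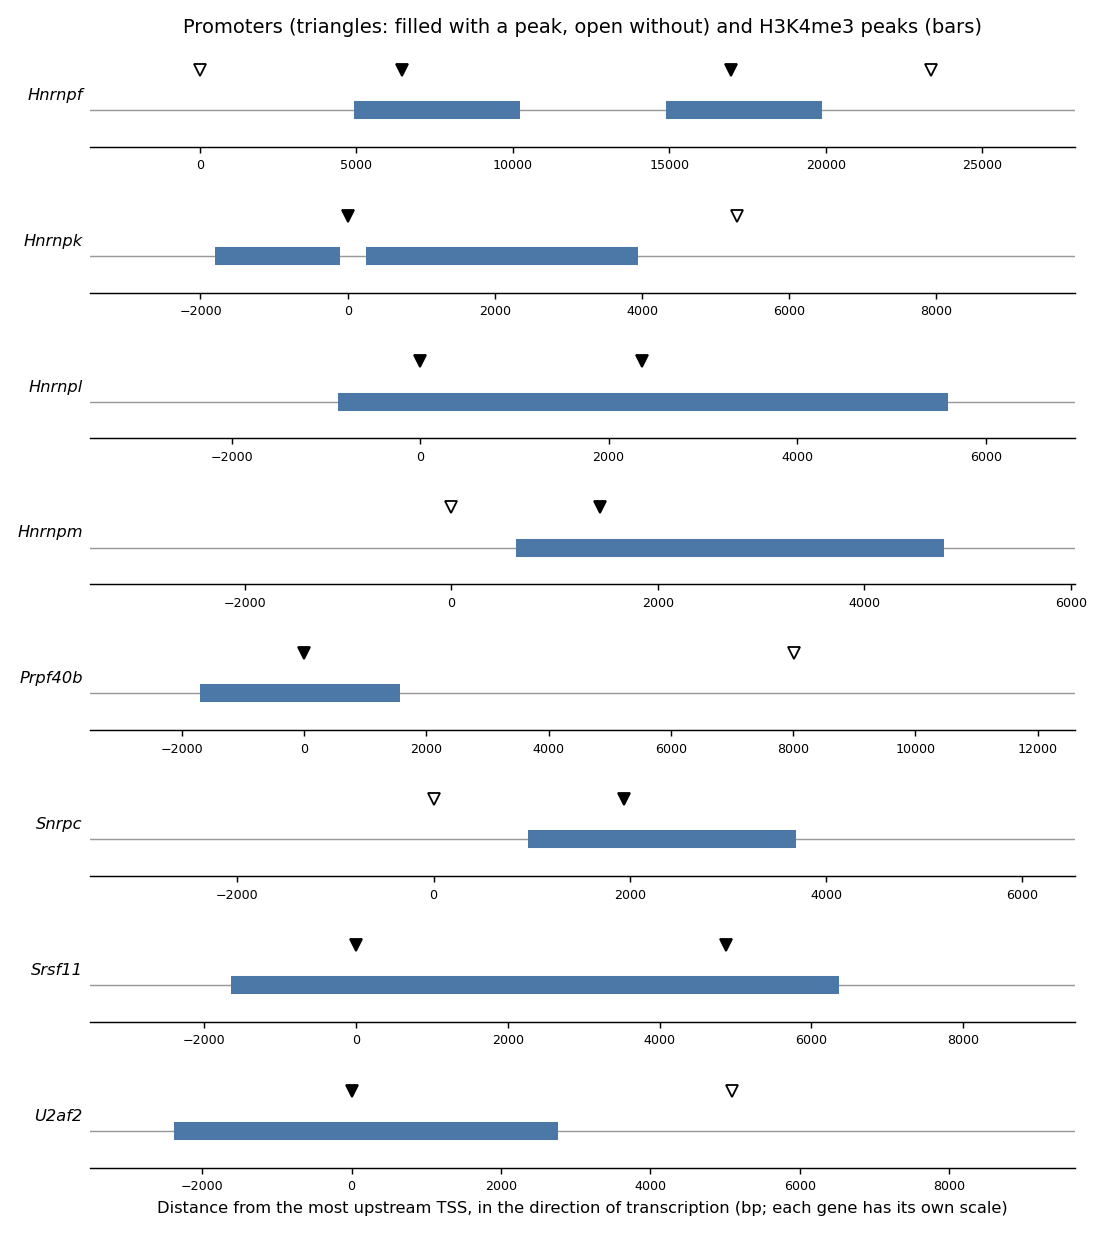
Promoters (triangles at the most upstream TSS of each, filled with a peak and open without) and H3K4me3 peaks (bars) of the 8 marked members with several promoters, in bp from the most upstream TSS with transcription to the right and a separate scale for each gene. Hnrnpf has 2 separate peaks for 2 of its 4 promoters, Srsf11 and Hnrnpl have 1 peak over both, and the other genes lack a peak at 1 promoter.

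Hnrnpk (ENSMUSG00000021546.18, chromosome 13, minus strand) and Sf3b4 had their mark split. At Hnrnpk, peaks of 3703 and 1707 bp lay on either side of a gap of 348 bp at 58403098 to 58403445, in which the most upstream TSS, at 58403343, lies. At Sf3b4 (chromosome 3), peaks of 3341 and 838 bp flanked a gap of 289 bp at 96173668 to 96173956. Of the 32-bp words in these gaps, 69.7% and 62.8% recurred elsewhere in the genome. The median over the members of the highest such share at a TSS was 0%, with no recurring word at any TSS in 41 of 68. The part of unmapped reads in the gaps was not tested. With the gap included, either mark would be wider than the width given for the gene.

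Short DNA motifs were counted, on both strands, in the RefSeq windows of 300 bp (250 bp upstream to 50 bp downstream of a start) that had a peak, of which 72 belonged to 57 members and 10022 to all protein-coding genes. Windows of 1 gene can overlap, and motifs were counted separately even where their letters overlap. The ETS motif CCGGAAG stood in 24 of the 72 windows (33.3%), against 20.7% of all windows with a peak and 11.9% of all 20061 windows. It was in all 3 Sf3a windows and 4 of 5 Sf3b windows but in 3 of 26 Hnrnp windows. The CRE-type motif TGACGT was in 18 (25.0%, against 12.9% of windows with a peak and 8.76% of all), and the CCAAT box in 35 (48.6%, against 38.3% and 37.9%), 17 of them among the 26 Hnrnp windows. The GC box GGGCGG was in 50 (69.4%), near the 69.6% of all windows with a peak (48.0% of all), with 12 of 13 in Srsf and 5 of 10 in Snrp. NRF1's GCATGCG (8.33%, 7.37% and 4.58%), the E-box CACGTG (15.3%, 10.7% and 8.06%), YY1's AAGATGG (4.17%, 7.56% and 6.30%) and the TATA box TATAAA (8.33%, 5.63% and 12.1%) were in few windows. A match is a description of letters and was not tested.

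Other splicing genes, from 10 lists of 126 genes, gave the comparison within the same machinery. The lists were chosen with earlier results of these data known. All 77 genes of the core lists had a peak, against 49.4% of all protein-coding genes and 70.2% of those with an island. All 77 had an island. They comprised 18 of the Prp19 complex and second-step factors and 10 of the U5 and tri-snRNP. A further 9 were of the SMN and Gemin group, which loads Sm rings onto snRNAs. Another 8 were of the minor spliceosome, 8 were helicases and 8 were of the exon junction complex. The remaining genes were 7 of the LSm ring and 9 of U1 and U2 snRNP and branch point recognition. The median width of the 77, 3101 bp, was below that of the 65 members and of all marked genes, but the lists differed. It was highest in U1 and U2 snRNP and branch point recognition (4031 bp), followed by the helicases (3635.5 bp) and the exon junction complex (3292.5 bp), and lowest in the Prp19 complex and second-step factors (2357 bp). In 49 regulators, of which 45 had an island, 31 (63.3%) had a peak. That share lay between the 49.4% of all protein-coding genes and the 70.2% of those with an island. Tissue-restricted and other regulators had one in 19 of 35 (54.3%), near the 49.4% of all protein-coding genes. However, 34 of these 35 had an island, and the share was below the 70.2% of genes with an island. SR-related proteins and SR protein kinases had a peak in 12 of 14 (85.7%). The marked regulators had a median of 3942 bp. The 4 widest of all 126 were Ptbp1 (7247 bp), the polypyrimidine tract binding protein that is itself an hnRNP, Mbnl1 (6694 bp), the helicase gene Ddx39b (6275 bp) and Usp39 (6180 bp). Of the 18 without a peak, the first 12 by name were Celf2, Celf3, Celf4, Celf6, Elavl3, Elavl4, Esrp1, Esrp2, Khdrbs2, Khdrbs3, Nova1 and Nova2. Elavl3, Elavl4, Nova1 and Nova2 are known for neurons, but other genes of these lists with that background had a peak, among them Elavl2 (2375 bp), Srrm4 (1962 bp), Celf5 (1812 bp) and Ptbp2 (2400 bp), which were picked after their values were seen. Esrp1 and Esrp2 are known for epithelial cells. The nearest peak was 730 bp from Esrp2 and 63306 bp from Esrp1.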

How the data were processed

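Samples were grouped by the labels alone. C127 chromatin was crosslinked with formaldehyde for H3K4me3 ChIP-seq in 3 replicates. No file of the 21 remaining samples was used. As the study's methods describe, the authors aligned reads to mm10 with bowtie2, kept uniquely placed reads, removed duplicates with SAMtools, called peaks per replicate with MACS against the input, kept peaks found in all replicates and merged close ones. The tools in the submitters' processing notes (Bowtie2, SAMtools, MACS2) carry no version. The deposited list holds positions in bp only, with no signal, score or count, so neither depth nor replicate spread is known. Of 13451 peaks, 13447 on 20 chromosomes were used, and their ends fitted the GRCm38.p6 chromosome lengths.

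Peaks were joined to GENCODE vM21 TSSs with Python 3.11.15, pandas 2.3.3 and numpy 2.4.6. The overlap code was tested on simulated positions. CpG islands were runs of sequence of 200 bp or more whose GC fraction reached 0.5 and whose CpG observed/expected ratio reached 0.6. The members and gene lists were chosen with earlier results of these data known. Genes were named by rule: those without a peak, with several promoters or with a divergent partner, the extremes of each family, every member of families of 6 or fewer, and the 5 widest and narrowest, with other genes named as examples after their values were seen. Of other splicing genes, the 4 widest and the first 12 by name without a peak were named. Alternatives changed the TSS distance, the TSS set, the promoter gap, the partner window and the peak width limit. No adjusted p-value was computed. 1 member enters the counts and medians but is not reported here by name.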

Additional observations from a re-analysis of the deposited data

How the results depend on the processing

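Of 43 alternative settings over 9 results, 41 stayed close to the value given: shares and medians within the 95% interval of the main value (Wilson for shares, order statistics for medians) and counts within 1.5 times. Leaving out members whose promoter sequence recurs removed no gene, so its value was fixed and says nothing of stability. The share of members with a peak was 95.6% under 4 of the 6 other alternatives, 91.2% with the most upstream TSS alone, where Hnrnpf, Hnrnpm and Snrpc lost their peak, and 97.1% with RefSeq starts, chosen after seeing the data. The median width stayed between 3734 bp (members without a divergent partner) and 3910 bp. The number of members with several promoters moved with the definition, from 9 to 16 with 250 bp between promoters and to 51 with the TSSs of the comprehensive annotation, a set that holds more transcripts per gene by construction. The share over all protein-coding genes is not given for these settings. The comparison with 22.3% of them therefore holds for 750 bp and the basic annotation only. No paired analysis was possible because the peak list analysed here is 1 consensus of the 3 replicates, and for the same reason no replicate could be left out. The depth of the libraries is unknown, and a peak that was missing in 1 replicate is not in the list.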
